A study of Mus musculus with 40 samples.

Results

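The 46 genes described here encode plasma membrane carriers of the families Slc5, Slc12, Slc22 and Slc34, and were picked out by symbol, as every row of the expression table whose symbol is one of these family names followed by "a" and a number. They are 46 of the 18024 genes in the table: 11 of Slc5, 9 of Slc12, 23 of Slc22 and 3 of Slc34. Symbols that end in a further letter, such as Slc5a4a, do not match and were not counted. RNA was sequenced from pancreas, kidney, heart, ovary and small intestine of C57BL/6j mice aged 60 days, collected 24 hours after p53 was activated by removing Mdm2, which normally marks p53 for degradation. Each tissue gave 5 libraries of FMTg mice (Mdm2FM/- Cag-CreERTg), which lose Mdm2, and 3 of Tg mice (Mdm2+/- Cag-CreERTg), which retain it. In all 13 mice were used (10 FMTg and 3 Tg). Tissues of the same 3 mice make up all Tg groups, and many FMTg mice also gave several tissues.

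Both genotypes carry the CreER transgene under the broadly active Cag promoter, and the Tg controls have a single working Mdm2 allele, so neither group is wild type. The agent that switched on the recombinase and the sex of the mice are not given in the sources used here. The libraries are bulk tissue, in which fewer cells of a type and less RNA per cell cannot be told apart. The replicates are named as biological by the labels.

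These carriers use ion gradients to move solutes across epithelia. The sodium pump on the basolateral side keeps sodium low inside the cell, and Slc5 and Slc34 carriers spend that gradient to bring glucose, inositol, lactate, vitamins or phosphate in from the lumen. Slc12 proteins couple sodium or potassium to chloride and set salt recovery along the nephron and chloride inside most other cells, while Slc22 proteins move organic cations, carnitine, urate and organic anions, including many drugs. Kidney tubule and intestinal villus are the classical sites of both glucose and phosphate recovery.

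Total reads per library, in M reads, were 14.6 to 27.9 M in kidney, 14.4 to 23.3 M in small intestine, 7.16 to 13.9 M in pancreas, 8.97 to 23.0 M in ovary and 15.3 to 29.0 M in heart. Levels are given as normalised reads, which are reads divided by the authors' size factor of the library. Differences are in log2 units of the deposited values, with their standard error (SE) after ±. In kidney, Mdm2 was at 918 to 1040 normalised reads in the Tg libraries and at 3230 to 5696 in the FMTg libraries, and the p53 target Cdkn1a at 210 to 281 and 1366 to 3064. Mdm2 is itself a target of p53, so its total level does not show the deletion.

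Several libraries of the other tissues held reads of kidney genes, and this bears on every value of the kidney carriers outside the kidney. As a measure, 20 of the members whose Tg kidney level lay more than 4 log2 units above the other tissues were set against their mean Tg kidney level, beside 3 markers of separate nephron segments that are not members (Lrp2 of proximal tubule, Umod of thick ascending limb and Aqp2 of collecting duct). The limit of 4 units and the 3 markers, out of 8 looked at, were chosen after the values were seen. The median of the 20 carriers reached 39.01% of the kidney level in FMTg pancreas 3, where the median of the 3 markers was 34.4%; each of the 20 carriers there lay between 24.5% and 64.5% of its kidney level. It was 17.3% in Tg small intestine 1 (markers 10.7%) and 12.2% in FMTg heart 3 (markers 11.5%). In the other 2 Tg small intestine libraries it was 0.0647% and 2.79%, with markers at 0.0642% and 2.36%. FMTg small intestine 1, 2 and 3 were at 6.24%, 2.79% and 7.38%, while FMTg small intestine 4 and 5 were at 0.02004% and 0. Where the markers of all 3 segments were raised with the carriers, levels of kidney carriers were not read as expression by the tissue on the label. Enterocyte RNA appeared likewise: Sis, the sucrase-isomaltase of the villus, was at 20900 normalised reads in FMTg ovary 3, beside 12400 of Slc5a1. Albumin stood at 1001200 in FMTg heart 4 and 144010 in FMTg heart 5, where the organic anion carrier Slc22a26 was at 1576 and 261. Summed pancreatic acinar markers were at 2827400 in Tg ovary 1 and at 36874 and 10224 in the other Tg ovaries. Slc12a8 was at 511 in that library, against 102 and 90.3. Summed cardiomyocyte markers were at 67323 in Tg small intestine 1, against 409 and 9224 in the other Tg small intestines. Both libraries enter the Tg tissue comparisons, and the part of this foreign RNA in them was not tested.

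**Figure D1:**
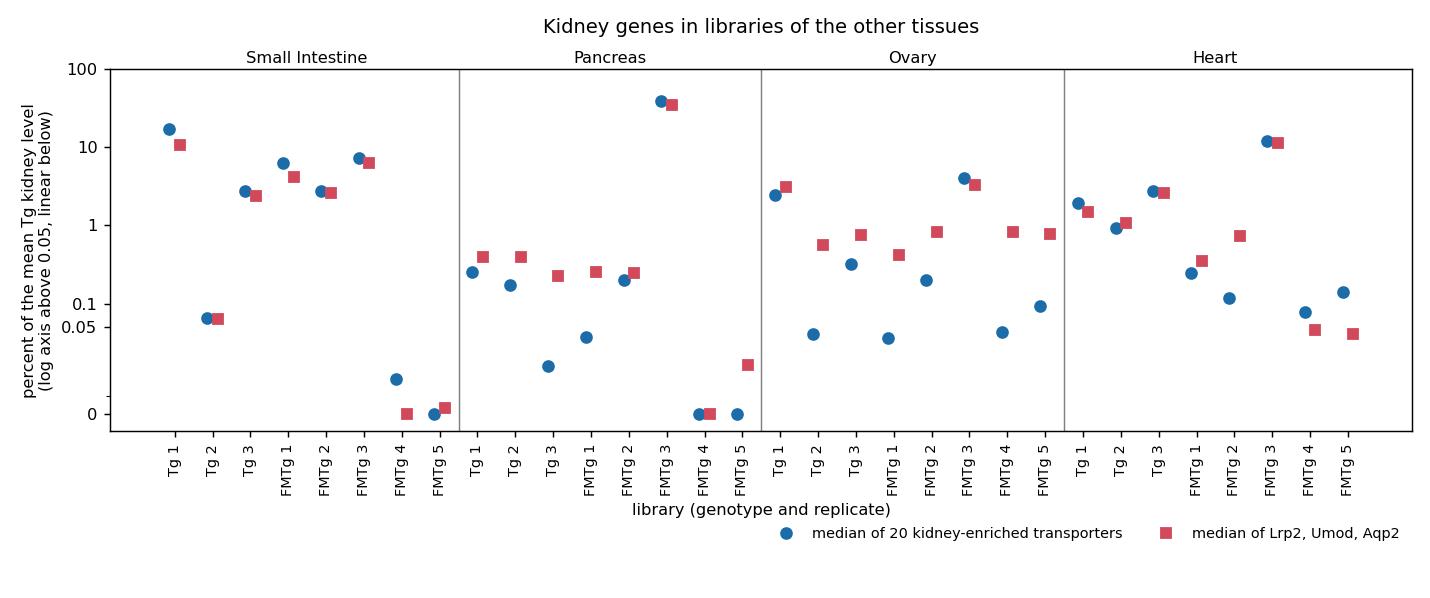
Level of kidney genes in each of the 32 libraries of pancreas, ovary, heart and small intestine, as a percent of the mean Tg kidney level (log axis above 0.05, linear below). Circles are the median of 20 kidney-enriched carriers and squares the median of the markers Lrp2, Umod and Aqp2; FMTg pancreas 3, Tg small intestine 1 and FMTg heart 3 stand highest, at 39.01%, 17.3% and 12.2%, with the markers beside them.

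In the Tg mice the kidney was the main site of these carriers. By mean level 31 of the 46 members were highest in kidney, 8 in small intestine, 3 each in heart and pancreas and 1 in ovary. Against the mean of the other 4 tissues, 39 of the 45 members tested differed in kidney (limma, adjusted p under 0.05 over all genes), 34 higher and 5 lower, where 57.7% of all 16251 genes tested differed and 25.6% were higher. The median log2 difference was 3.51 for the members and -0.10 for all genes. Higher by more than 1 log2 unit were 30 members, and 12.4% of all genes.

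The organic anion and urate carriers were the most uniformly renal role: 11 of 11 tested were higher in kidney, with a median log2 difference of 6.17. Slc22a12, the urate exchanger of the proximal tubule brush border, was at 11226, 14503 and 13789 normalised reads in the 3 Tg kidneys and was 7.38 ± 1.01 log2 units (SE) above the other tissues (adjusted p = 5.95e-05). Slc22a6, which takes organic anions up from the blood side, was at 5106, 6490 and 7382 and 7.29 ± 1.03 above. Of the organic cation carriers 2 of 3 were higher, and of the carnitine carriers 2 of 3.

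Among the salt carriers, Slc12a1, the furosemide-sensitive cotransporter of the thick ascending limb, was at 23663, 25327 and 24368 and 7.33 ± 1.18 above the other tissues. The 3 kidneys lay close together for this gene. Slc12a3, the thiazide-sensitive cotransporter of the distal convoluted tubule, was also called higher, while the third member of that role, the widely expressed Slc12a2, was lower in kidney by 0.62 ± 0.13 (SE). The potassium-chloride cotransporters, which let chloride leave cells and include broadly expressed members, were higher in 2 of 4, with a median of 0.51.

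Of the 6 sugar and inositol carriers 5 were higher in kidney, with a median of 3.5. Slc5a10, a mannose and fructose carrier of the proximal tubule, was at 4930, 8962 and 8776 and 7.19 ± 0.97 above the other tissues. The sixth, Slc5a1, differed by 1.93 ± 0.98 (adjusted p = 0.106), with its highest levels in small intestine. Of the phosphate carriers 2 of 3 were higher: Slc34a1, the main phosphate carrier of the proximal tubule, was at 37890, 25775 and 30097 and 7.19 ± 1.33 above (adjusted p = 0.000576), and Slc34a2 did not pass (0.93 ± 0.81, adjusted p = 0.344). The members lower in kidney beside Slc12a2 were Slc12a8 (-3.71 ± 0.45), the choline carrier Slc5a7 (-1.13 ± 0.46), Slc22a15 (-0.999 ± 0.11) and the iodide carrier Slc5a5 (-0.86 ± 0.33). Slc5a7 and Slc5a5 rest on few reads, at 2, 0 and 1 and at 6, 8 and 0 in the 3 Tg kidneys. The Slc5a5 call passed in 4 alternative fits and failed in 4, and the Slc5a7 call passed in 7 and failed in 2.

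Set per kilobase of exon, the scale on which genes can be compared, Slc34a1 was the most abundant member in Tg kidney at 6684 ± 1313 normalised reads per kilobase (SD, n = 3), followed by Slc22a12 at 5821 ± 762. These overlap within their spread. Slc12a1 followed at 4243 ± 145 and Slc5a10 at 3195 ± 962, and this pair also overlaps.

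**Figure D2:**
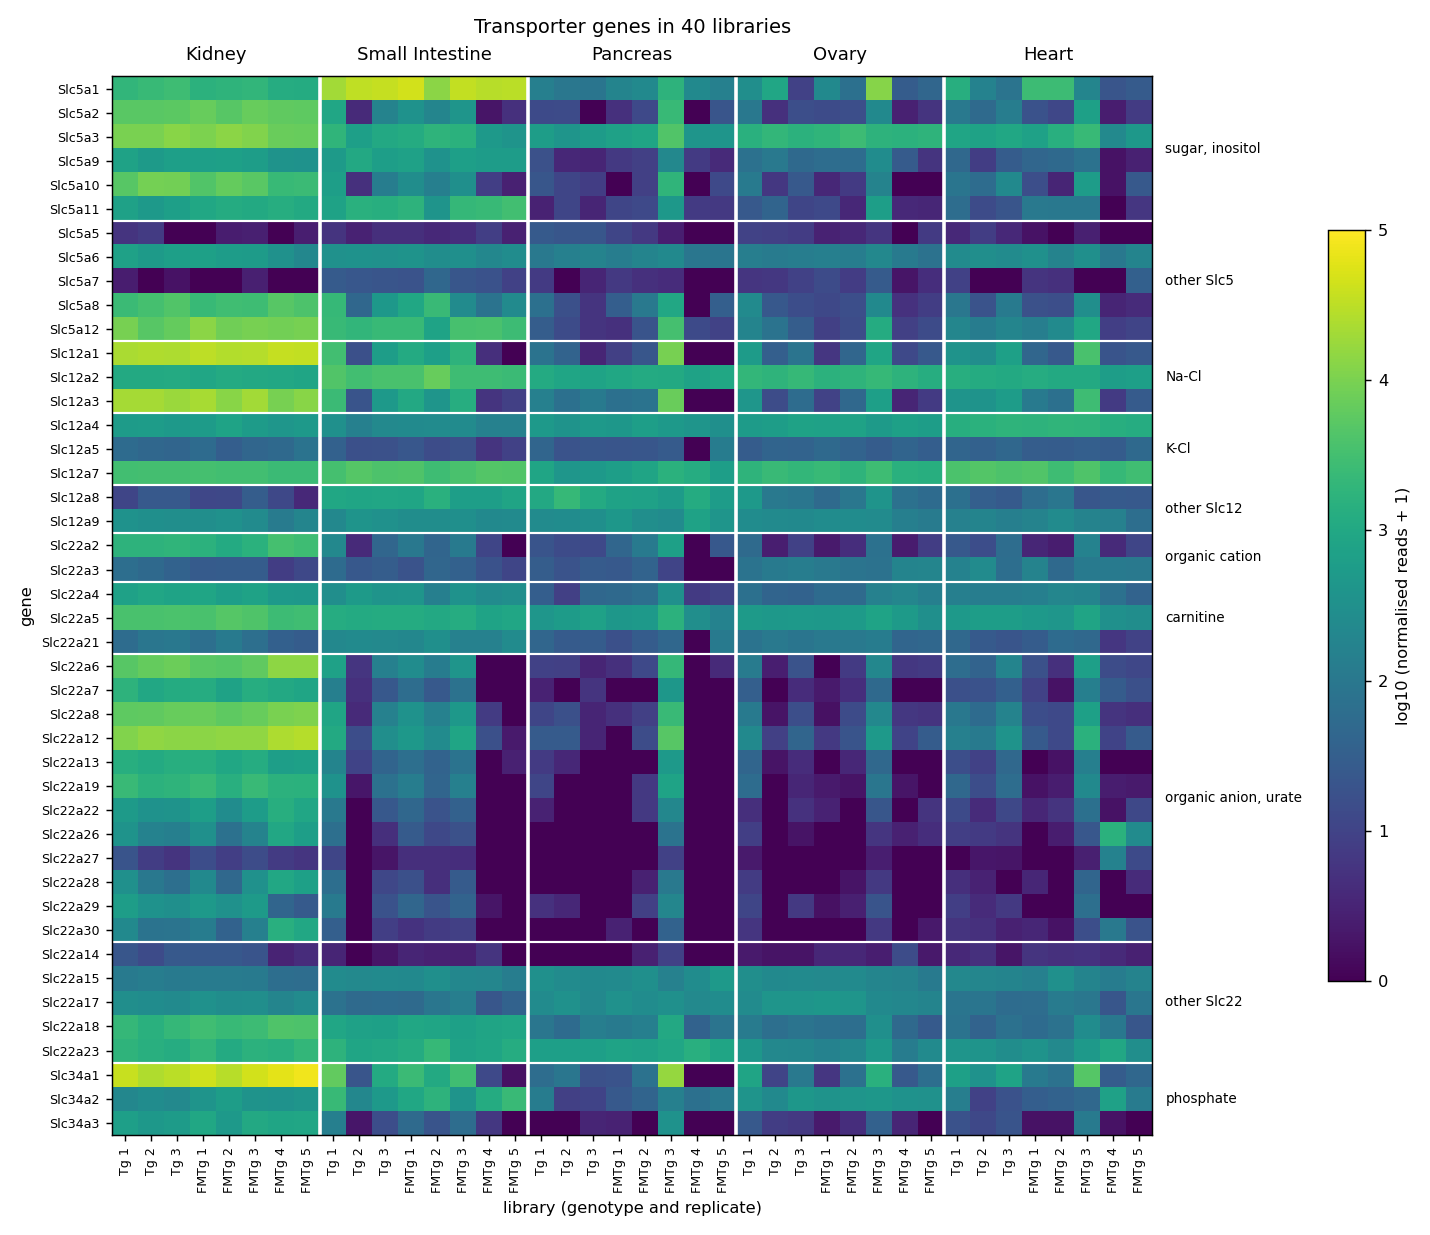
Levels of 44 members in all 40 libraries as log10 (normalised reads + 1), genes in rows grouped by role and libraries in columns by tissue and genotype. Most rows are brightest in kidney, and the columns of FMTg pancreas 3, Tg small intestine 1 and FMTg heart 3 are brighter in the kidney rows than their neighbours.

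Promoters were searched for the p53 half-site, a motif of 10 letters that reads the same on both strands, since p53 was activated in the FMTg mice. The motif, and the sequences shown, were chosen after the levels were known. Of the 46 members 38 had a promoter in the RefSeq table (GRCm38.p6, 250 bases before to 50 after the start). A match lay in 2 of the 38 (5.26%), in Slc22a8 and Slc5a5, against 2745 of all 32851 RefSeq promoters (8.36%). For each member only the promoter nearest its annotated gene start was kept, while all genes were counted with every promoter, so the shares have unlike units. Some of the kept promoters lie far from that start, such as those of Slc22a8 (1928 bases) and Slc22a14 (175158 bases). A match is a run of letters and was not tested as a binding site. The sequences below show the member called by genotype in kidney, Slc5a11 (chr7:123214616-123214915, plus strand), which holds no match in this window, beside both members with a match, the kidney organic anion carrier Slc22a8 (chr19:8592932-8593231, plus strand) and the iodide carrier Slc5a5 (chr8:70892708-70893007, minus strand), with the half-site in capitals.
Slc5a11: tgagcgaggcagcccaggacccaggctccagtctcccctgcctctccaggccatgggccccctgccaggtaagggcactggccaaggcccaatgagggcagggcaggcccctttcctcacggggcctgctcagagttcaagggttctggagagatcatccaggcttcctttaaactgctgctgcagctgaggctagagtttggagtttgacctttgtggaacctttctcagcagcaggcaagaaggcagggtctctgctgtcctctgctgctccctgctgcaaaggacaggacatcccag
Slc22a8: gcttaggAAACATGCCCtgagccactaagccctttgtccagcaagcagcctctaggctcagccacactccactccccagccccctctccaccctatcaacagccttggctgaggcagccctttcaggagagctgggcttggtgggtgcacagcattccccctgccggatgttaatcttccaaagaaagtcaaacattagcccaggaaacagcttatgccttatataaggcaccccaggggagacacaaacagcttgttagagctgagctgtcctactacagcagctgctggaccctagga
Slc5a5: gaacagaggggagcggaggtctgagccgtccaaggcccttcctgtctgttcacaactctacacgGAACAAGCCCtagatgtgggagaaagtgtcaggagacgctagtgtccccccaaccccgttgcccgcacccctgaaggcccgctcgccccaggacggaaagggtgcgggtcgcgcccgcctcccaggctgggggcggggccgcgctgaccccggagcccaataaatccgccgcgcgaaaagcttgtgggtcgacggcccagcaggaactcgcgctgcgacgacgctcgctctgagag
Slc22a8 and Slc5a5 each hold the half-site a single time, and neither was called by genotype in a tissue where it was tested, with the tissues fitted separately.

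In Tg small intestine 22 of 45 members differed from the mean of the other tissues, 17 higher and 5 lower, where 56.7% of all genes differed (29.8% higher, 27% lower), and the median log2 difference was 0.19 for the members and -0.02 for all genes. The largest differences upward were those of Slc5a1, Slc5a11, Slc5a9, Slc5a12 and Slc12a8. Slc5a1, the sodium-glucose carrier that takes up dietary glucose, was at 19998, 33015 and 35792 and 6.46 ± 0.98 log2 units above the other tissues (adjusted p = 0.00011). Per kilobase it was at 7213 ± 2055 (SD, n = 3), above the next members by far more than the spread: Slc5a12, a low-affinity lactate carrier, at 546 ± 53.3, Slc34a1 at 531 ± 716 and Slc22a18 at 461 ± 73.4. The Slc34a1 value came from Tg small intestine 1 and 3, with 6298 and 1136 normalised reads against 20 in Tg small intestine 2.

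Members with their highest Tg mean in small intestine were of several roles. They included the chloride cotransporter Slc12a2 (3736 normalised reads), the carnitine carrier Slc22a21 (229) and the choline carrier Slc5a7 (22.7). Slc5a11, a sodium-inositol carrier, was at 772, 1490 and 1342 and 4.61 ± 0.40 above the other tissues, and Slc5a9, a mannose and glucose carrier, was 3.49 ± 0.42 above. Slc5a12 was 3.43 ± 0.42 and Slc12a8 2.85 ± 0.45 above. Slc34a2, the phosphate carrier of the intestinal brush border, was 2.70 ± 0.81 above (adjusted p = 0.0126), but its libraries ranged widely, at 2328, 206 and 489. The largest differences downward were Slc22a17 (-1.70 ± 0.19), Slc12a4 (-1.63 ± 0.18) and Slc22a3 (-0.86 ± 0.35, adjusted p = 0.0495, and 0.0543 with the mouse as a block). The call of Slc22a3 was narrow: it passed in 2 alternative fits and failed in 8. Slc12a3 (-0.72 ± 1.07, adjusted p = 0.584) and Slc5a10 (-0.67 ± 0.97, adjusted p = 0.576) did not pass.

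These counts were recomputed without Tg small intestine 1 and 3, which held kidney markers. With Tg small intestine 2 as the only intestinal library, a choice made after the values were seen and with its spread taken from the other groups, 31 members differed, 13 higher and 18 lower, and the median was -1.31 in place of 0.19. Of all genes 7990 of 16188 then differed, 3978 higher and 4012 lower, with a median of -0.06. The part of the kidney reads in this shift was not tested, since the setting also leaves 1 intestinal library. Slc12a3 was then 4.42 log2 units lower than in the other tissues (adjusted p = 0.0053), Slc5a10 4.01 lower (0.00536), Slc12a1 4.34 lower and Slc34a1 4.47 lower (0.023).

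Kidney and small intestine of the same 3 mice were also compared directly. Of 45 members 35 differed, 29 higher in kidney and 6 lower, where 57.4% of all genes differed and 26.3% were higher; the median was 2.05 for the members and -0.08 for all genes. The organic anion and urate carriers were higher in kidney in 11 of 11. Slc5a1 was higher in small intestine by 3.62 log2 units (SE 1.23, adjusted p = 0.0236), and Slc34a2 did not pass. Slc34a1 was 5.76 ± 1.68 higher in kidney, and 10.2 higher against Tg small intestine 2 alone.

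In the other Tg tissues the leading members per kilobase were mostly broadly expressed carriers. Heart was led by Slc12a4 at 365 ± 49.9 and Slc12a7 at 328 ± 29.6, both potassium-chloride cotransporters that act in cell volume control, then the carnitine carrier Slc22a5 at 189 ± 22.1 (SD, n = 3). Slc34a1 at 132.3 ± 50.04 and Slc5a1 at 129 ± 171 followed there, in libraries that held kidney markers and, in Tg heart 1, Sis at 2071. Ovary was led by Slc12a2 at 185 ± 20.9, Slc12a7 at 164 ± 24.3, the inositol carrier Slc5a3 at 160 ± 27.2, Slc22a5 at 158 ± 10.1 and Slc12a4 at 149 ± 22.5, neighbours that overlap within their spread. Pancreas was led by Slc12a8 at 333 ± 151, with Slc22a5 at 187 ± 49.0, Slc12a4 at 107 ± 19.0 and Slc22a23 at 104 ± 1.52.

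Among the partners of these carriers most lists held a larger share of genes higher in Tg kidney than the 25.6% of all genes, which was not tested as a difference. Of the sodium pump and its basolateral partners 10 of 10 were higher in kidney (median 6.09), of the receptors and scaffolds of phosphate hormones 9 of 12 tested (2.44), of other carriers of organic ions 10 of 12, with the drug efflux pump Abcb1a lower (-1.39), and of 14 transcription factors of renal and intestinal epithelium 11 (3.27). The kinases and ligase subunits that regulate cation-chloride cotransport were mixed, higher in 4 and lower in 3 of 12 (0.22), and of the facilitative sugar carriers 2 of 3 were higher (3.33).

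After loss of Mdm2, 1 of 44 members tested in kidney changed, where 0.616% of 15415 genes did (93 higher, 0.603%, and 2 lower, 0.013%). That member was Slc5a11, a protein-coding gene at chr7:123214780-123273253 on the plus strand (GRCm38, GENCODE M21). It was at 724, 502 and 663 normalised reads in the Tg kidneys and at 963, 1183, 1079, 1329 and 1106 in the FMTg kidneys. Each FMTg kidney lay above each Tg kidney, with means of 629.5 ± 114.9 (SD, n = 3) and 1132 ± 136 (SD, n = 5). The log2 difference was 0.85 ± 0.14 (adjusted p = 0.0357, limma), and the exact permutation p of 0.0179 is the smallest that 3 against 5 libraries allow. The call was narrow: the adjusted p was 0.0537 with voom on recovered reads, 0.159 with the replicate number as a block (difference 0.78) and 0.184 without Tg kidney 2. No Tg library has the number 4 or 5, so FMTg kidney 4 and 5 do not enter the blocked difference. Slc5a11 takes up inositol, an osmolyte and lipid precursor, in kidney and intestine, and none of its 50-base exon segments occurred in another gene.

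**Figure D3:**
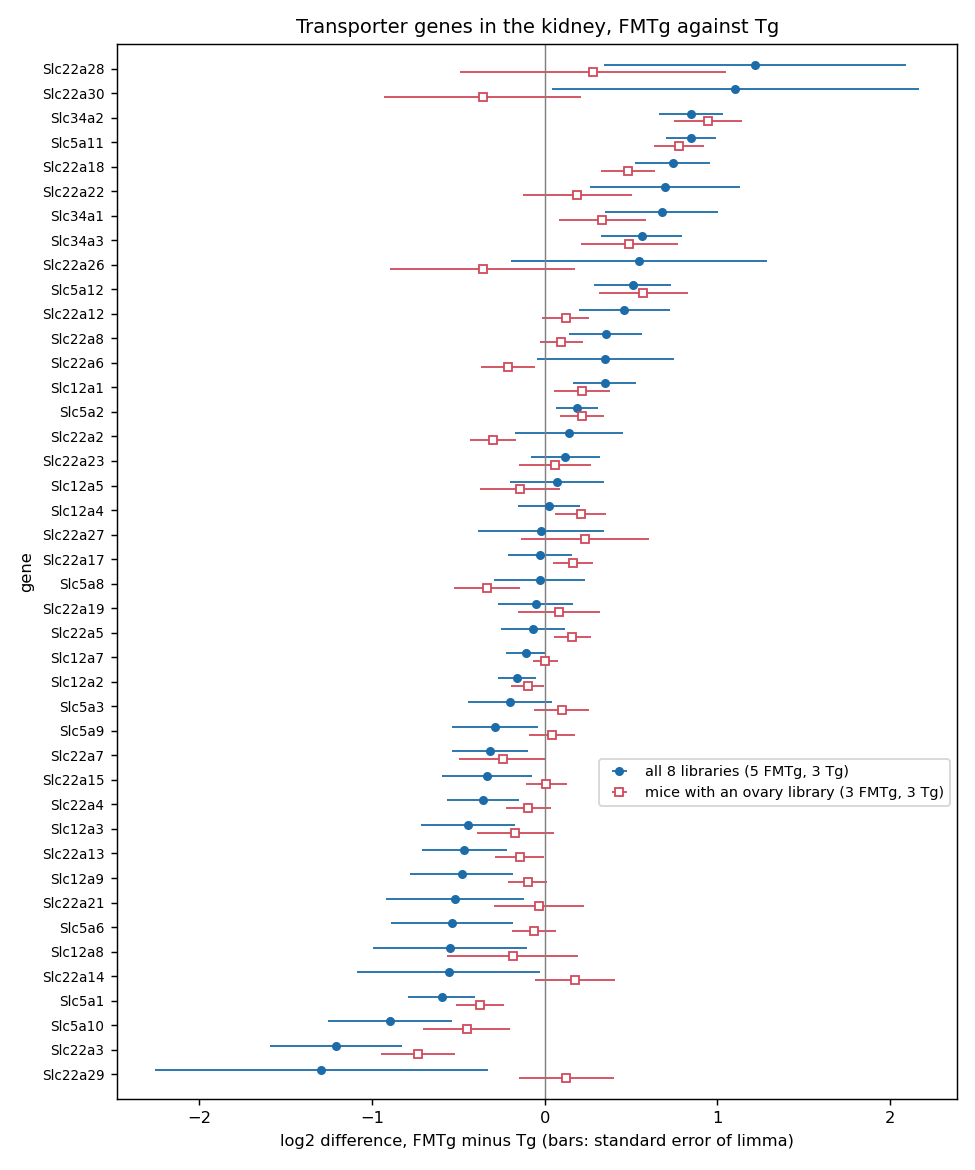
Log2 difference FMTg minus Tg in kidney for 42 of the 44 members tested, with standard errors from limma (bars), for all 8 libraries (circles) and for the 6 libraries of mice that also gave an ovary library (open squares). Slc5a11 and Slc34a2, both at 0.85 with all libraries, keep their side of 0 in the smaller set, while Slc22a30 and Slc22a29 change sides.

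None of the other members passed. At an unadjusted p under 0.05 there were 8 members of 44, a larger share than the 8.32% of all genes (1282 of 15415), and whether the shares differ was not tested. Of the 44 differences 21 were positive, and the median was -0.02 against -0.05 for all genes. All 3 phosphate carriers had positive differences, at 0.68, 0.85 and 0.56, and none passed. Slc34a2 was at 202, 265 and 222 in Tg and at 384, 608, 376, 353 and 400 in FMTg kidneys, with no overlap. Its difference of 0.85 ± 0.18 had an adjusted p of 0.131 (limma) and an exact permutation p of 0.0179. With the replicate number as a block the difference was 0.94 and the adjusted p 0.0278 (limma). That difference comes from FMTg kidney 1 to 3 only, since no Tg library has the number of the other FMTg kidneys.

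Slc22a18, an Slc22 relative of uncertain substrate encoded in an imprinted region, was at 2115, 1481 and 2155 in Tg and at 2900, 2348, 2721, 4257 and 4001 in FMTg kidneys. The groups did not overlap, and the difference of 0.74 ± 0.22 did not pass (adjusted p = 0.385, limma). Slc22a3, a low-affinity organic cation carrier, was at 64.3, 49.9 and 36.2 in Tg and at 25.7, 28.1, 27.6, 7.08 and 11.01 in FMTg, all below (-1.21 ± 0.38, adjusted p = 0.452). Slc5a1 was at 1923, 2348 and 2775 against 1642, 1771, 1982, 1265 and 1168, with overlap (-0.60 ± 0.19, adjusted p = 0.479). Slc12a1 was at 32248, 26010, 27224, 35854 and 35471 in FMTg kidneys, all above the 3 Tg values, with a difference of 0.35 ± 0.18 (adjusted p = 0.564). In all, 4 members lay wholly above and 1 wholly below the Tg range, where 4.17% and 4.56% of all genes did.

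FMTg kidney 4 and 5 stood apart from the other 6 kidneys. They came from mice that gave no ovary library, had 3763 and 2739 normalised reads summed over 4 Y-linked genes where the other 6 kidneys had at most 3.15, and had 2325 and 2346 genes without reads against 1535 to 1654. All 3 Tg mice gave an ovary. Of 44 members, 12 lay above and 16 below the range of the other 6 libraries in both, where 20.4% and 28.7% of all genes did. This division of the kidneys, and the genes named for it, were chosen after their values were seen. Slc22a30, an organic anion carrier, was at 1453 and 985 against 36.5 to 235. Slc22a6 was at 14380 and 14329 against 4830 to 7382, and Slc34a1 at 62383 and 79721 against 25775 to 45542. None of the other 6 kidneys, of either genotype, reached these levels. In the other direction Slc22a29 was at 41.9 and 24.8 against 305 to 619, and Slc5a10 at 2348 and 2596 against 4403 to 8962. Slc5a11, at 1329 and 1106 in these kidneys, overlapped the other FMTg kidneys. Among the kidneys, sex, depth and the number of genes without reads cannot be told apart, and no test was made. Depth was 27.9 and 26.9 M reads in FMTg kidney 4 and 5, and 14.6 to 21.4 M in the other kidneys. Outside the kidney, FMTg ovary 4 and 5 had 1572 and 2125 genes without reads, against 694 to 1063 in the other ovaries. FMTg pancreas 1, from a mouse without an ovary library and with 2534 normalised reads of Y-linked genes, had 2191. Pancreas libraries of mice with an ovary library had 1559 to 2618. The summed proximal tubule markers were at 662260 and 605490 in FMTg kidney 4 and 5, at 248630 to 330980 in FMTg kidney 1 to 3 and at 238210 to 318450 in Tg. Kap, an androgen-regulated gene of the proximal tubule, made up 332640 and 272910 of the first pair. The summed thick ascending limb markers ranged from 87383 to 119650 in FMTg and from 100220 to 108130 in Tg kidneys. Their part in the member values was not tested.

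The same division of the mice was counted in the other tissues. In small intestine FMTg 4 and 5 lay above the other libraries for 1 member (Slc5a11) and below for 16 of 44, where 16.8% and 24.7% of all genes did, and these are the FMTg libraries without kidney markers. In heart the mice without an ovary library lay above for 3 and below for 18 of 45 members (14.6% and 19.8% of all genes). Those above were Slc22a26, Slc22a27 and Slc22a30. Summed hepatocyte markers were at 1135100 and 164910 in these 2 hearts and at most 10810 in the others. Those below included kidney carriers such as Slc34a1 and Slc12a1, and broadly expressed members such as Slc12a2 and Slc12a4. Kidney markers were at 0.0484% and 0.0461% in these 2 hearts and at 0.354% or more in the others. The part of foreign RNA in these counts was not tested. In small intestine and heart the share of members below was larger than that of all genes, which was not tested as a difference. In pancreas 3 libraries (FMTg 1, 4 and 5) came from mice without an ovary library, against 2 in kidney, small intestine and heart. All 3 had to lie outside the range of the other 5, so the pancreas counts cannot be compared with those of the other tissues. These 3 libraries lay above for 1 and below for 2 of 40 members (3.91% and 5.37% of all genes), near or under the shares of all genes.

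**Figure D4:**
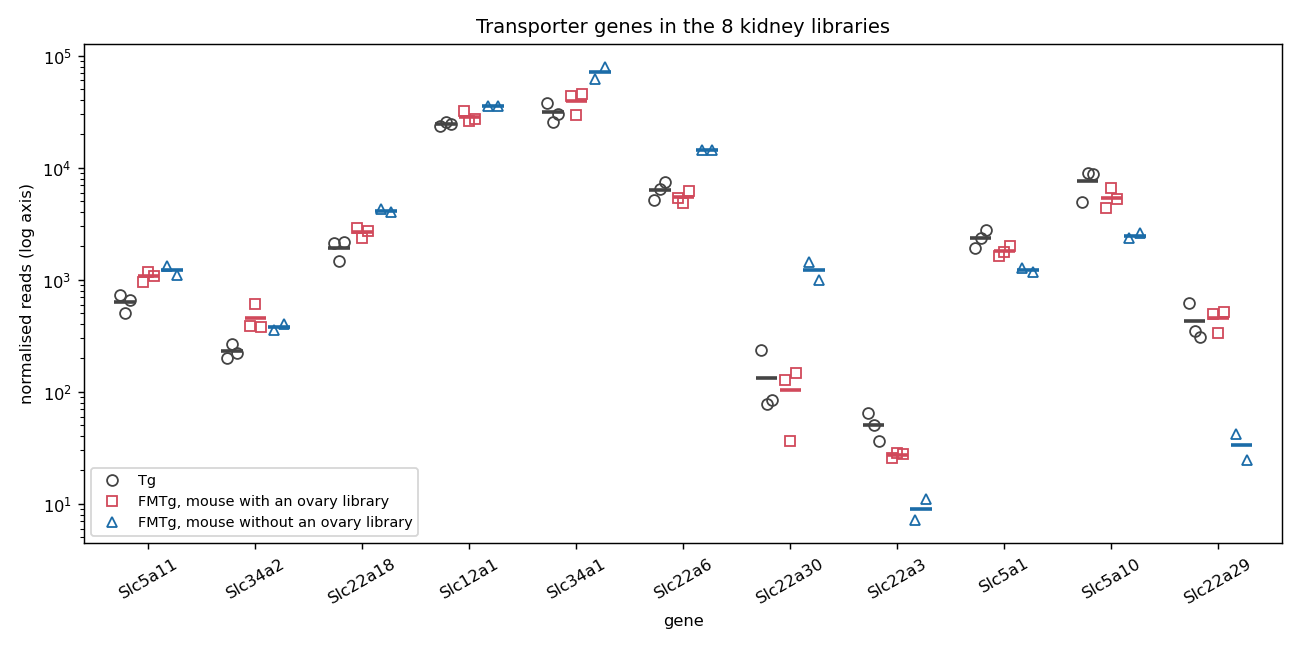
Normalised reads (log axis) of 11 members, picked after their values were seen, in the 8 kidney libraries: circles Tg, squares FMTg mice with an ovary library, triangles FMTg mice without one, short lines the group means. Slc5a11 and Slc34a2 lie higher in both FMTg kinds, whereas Slc22a6, Slc22a30 and Slc22a29 differ mainly between triangles and the rest.

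In the small intestine no member of 44 was called, where 0% of 16104 genes were (limma). None of the members had an unadjusted p under 0.05, voom called 0, and 2.41% of all genes lay under that unadjusted limit. The summed normalised reads of 8 p53 targets, Mdm2 included, were at 6125 to 11114 in Tg and 19610 to 38528 in FMTg. These targets were not called either, so the absence of calls does not show that the members were unchanged. No member lay wholly above the Tg intestines and 1 lay wholly below, where 1.69% and 1.19% of all genes did. The ergothioneine carrier Slc22a4 differed by -0.51 ± 0.34, the vitamin carrier Slc5a6 by -0.28 ± 0.19 and the neuronal Slc12a5 by -0.61 ± 0.42, each with an adjusted p of 0.99. Slc5a1 was at 46142, 13785, 34948, 29064 and 31003 in FMTg intestines, on both sides of the Tg values, while summed enterocyte markers ranged from 131000 to 725100 in FMTg and from 206600 to 406000 in Tg. The median difference of the members was -0.30, against -0.05 for all genes, and it was 0.18 with only the mice that gave an ovary, so no direction was read from it.

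The response in kidney was set against that in small intestine as an interaction. None of 46 members differed, where 0.0124% of 16185 genes did (2 genes), and no member had an unadjusted p under 0.05, a limit under which 1.11% of all genes lay. For Slc5a11 the difference was 0.56 ± 1.46 (adjusted p = 1), so its call in kidney was not shown to be particular to kidney against intestine, where Slc5a11 was at 772, 1490 and 1342 in Tg and at 1726, 387, 2105, 2378 and 3033 in FMTg.

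In pancreas none of 40 members changed, where 0.446% of genes did (68 of 15262; 0.419% higher, 0.0262% lower), and 2 members had an unadjusted p under 0.05 (8.42% of all genes), with 0 called by voom. Slc12a8, a divergent Slc12 protein described as a carrier of nicotinamide mononucleotide, was at 1028, 2251 and 1154 in Tg and at 755, 723, 547, 1189 and 581 in FMTg (-0.92 ± 0.31, adjusted p = 0.418). Slc5a5 was low throughout, at 24.6, 20.6 and 21.02 against 9.85, 5.80, 1.63, 0 and 0, with no overlap (-2.12 ± 0.74, adjusted p = 0.443). With all 40 libraries in 1 model (limma) that difference was -2.18 and its adjusted p 0.0094. Both rest on 12, 8 and 9 reads of Slc5a5 in the Tg libraries and 5, 3, 1, 0 and 0 in the FMTg libraries. FMTg pancreas 4 and 5, where Slc5a5 was at 0, were also the libraries with 6020 and 4087 genes without reads, against 1559 to 2618 in the others. Slc22a23 (0.46 ± 0.22, adjusted p = 0.645) and Slc5a1 (1.47 ± 0.72, adjusted p = 0.653) lay wholly above Tg, and Slc12a7 differed by 0.69 ± 0.35 (adjusted p = 0.664). In pancreas 4.68% of genes lay wholly above and 5.05% wholly below the Tg range. Slc5a1 was at 1740 in FMTg pancreas 3, which held kidney markers, and at 149 to 240 in the other FMTg libraries. The members' median of 0.48 became -0.09 without FMTg pancreas 3.

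In ovary none of 42 members was called, where 0% of 16486 genes were. The summed p53 targets were at 6247 to 7993 normalised reads in Tg and 9251 to 17334 in FMTg ovaries. They were not called either, so unchanged members are not shown here. No member had an unadjusted p under 0.05 (6.36% of all genes), and voom called 0. Slc22a4 was at 70.3, 40.8 and 36.0 in Tg and at 53.8, 53.4, 159, 192 and 146 in FMTg (1.08 ± 0.48, adjusted p = 0.78), with overlap. Its 3 highest values were in FMTg ovary 3, 4 and 5. Summed enterocyte markers were at 149440 in FMTg ovary 3 and at most 11402 in the other ovaries. Summed adipocyte markers were at 26509 and 31195 in FMTg ovary 4 and 5 and at most 5297 in the others. The latter 2 libraries also had 1572 and 2125 genes without reads, against 694 to 1063. The part of these traits in the Slc22a4 values was not tested. Slc5a5, at 8.79, 7.998 and 6.69 against 1.97, 2.58, 4.88, 0 and 5.97, lay wholly below, as did 2.38% of genes, while no member lay wholly above (3.43% of genes; Slc5a5 -0.90 ± 0.48, adjusted p = 0.828). Slc22a15 (-0.51 ± 0.26), Slc22a14 (0.62 ± 0.47) and Slc12a2 (-0.22 ± 0.18) were the others with the smallest p-values, none of which passed.

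In heart none of 45 members changed, where 0.019% of 15769 genes did (3 genes). No member had an unadjusted p under 0.05 (6.33% of all genes), and voom called 0. Slc12a2 differed by -0.42 ± 0.25 and Slc12a7 by -0.37 ± 0.23, each with an adjusted p of 0.76. Slc12a1 was at 368, 283 and 682 in Tg and at 44.3, 24.0, 3734, 18.9 and 24.0 in FMTg hearts (-2.32 ± 1.56). The highest and the 4 lowest of these values were all FMTg, and kidney markers were at 1.09% to 2.63% of the kidney level in Tg hearts, at 11.5% in FMTg heart 3 and at 0.0461% to 0.743% in the other FMTg hearts. Slc5a10 (-2.08 ± 1.40) and Slc12a3 (-2.19 ± 1.49) were likewise highest in FMTg heart 3 and lower in the other FMTg hearts than in the Tg hearts. The part of the kidney RNA in these values was not tested. No member lay wholly above or below the Tg hearts, where 3.42% and 3.49% of genes did.

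None of the listed partner genes changed by genotype in kidney or small intestine. In kidney the median differences of the 6 lists lay between -0.07 and 0.08. In pancreas 1 of the 12 receptors and scaffolds of phosphate hormones tested rose and none of the other lists' genes did, where 0.446% of all genes changed. It was the FGF receptor gene Fgfr3, which was at 291, 325 and 343 in Tg and at 840, 769, 779, 1214 and 1240 in FMTg (1.55 ± 0.22, adjusted p = 0.0172), with no overlap. With the replicate number as a block, which leaves FMTg pancreas 4 and 5 out of the difference, no gene passed in pancreas, Fgfr3 included.

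Some members share sequence, and their reads may be split between them. Of the 50-base exon segments of Slc22a28, 53.9% also occurred in other genes, mainly Slc22a30, for which the share was 34.3%. It was 29.9% for Slc22a27, 28.7% for Slc22a29, 26.3% for Slc22a5, 22% for Slc22a21, 36% for Slc22a13 and 27.4% for Slc22a12, which overlaps Nrxn2 on the opposite strand. Levels of these genes are uncertain to that extent. How reads that fit several genes were counted is not given in the sources used here, nor is the strand setting. The strand setting bears on Slc22a12 and on other members whose exons overlap a gene on the opposite strand. These include Slc34a1 (Pfn3, 10.6% of segments shared), Slc5a10 (Fam83g, 10.7%), Slc5a2 (BC017158, 15.8%), Slc22a3 (Plg, 8.27%) and Slc12a4 (Gm16156, 5.19%). Slc5a6 overlaps Atraid on the opposite strand and shared 20.8% of its segments with other genes, mainly Gm6157. The levels of these members carry the same limit.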

How the data were processed

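Expression in 40 libraries was analysed as deposited by the authors, in log2 units after the variance-stabilising transform of DESeq2. Reads had been aligned with STAR 2.6.0b to GRCm38, per the submitters' processing notes; the counter, annotation release and strand setting are not given in the sources used here. The lowest deposited value, 1.6532, stands for 0 reads. Inverting the transform gave whole reads for 100% of the values (tolerance 0.01), from which normalised reads and totals of 7.16 to 29.0 M reads per library were taken; intervals from reads cover counting error only.

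Genotypes were compared per tissue with limma 3.58.1 (trend) in R 4.3.3 with statmod 1.5.0 on the deposited log2 values. A gene entered the test where its tissue mean was 1 or more above the lowest value, and p-values were adjusted by Benjamini-Hochberg over all of them, with a threshold of 0.05. Tissues were compared in the 15 Tg libraries. For the interaction, 40 libraries were fitted together, with a random effect of mouse (correlation 0.249). Members without a test failed the filter on low values: 2 of 46 in kidney. Exon lengths came from GENCODE M21, to which 18003 of 18024 genes matched by ID. The fits were also run on simulated reads with known changes, and the outcome is not reported here. Alternatives were another filter, voom on recovered reads, no trend, library weights, library medians subtracted, a replicate block, subsets of mice and leaving out each library.

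Members and lists were chosen with earlier results of these data known. Named with values are members past the threshold, the 5 with the smallest genotype p in each tissue, the 5 highest per kilobase in each Tg tissue, and the 5 with the largest Tg differences of kidney and small intestine in each direction; some of them are not reported here, and 2 members were left out of the plots and 1 out of the kidney-enriched carriers. Libraries with the same number were checked for pairing. In kidney, Tg and FMTg libraries of the same number deviated together (correlations 0.17 to 0.34), so blocked values stand beside the results they change. The numbers name different mice in each genotype. Tg has no library 4 or 5, so the genotype difference of a blocked fit comes from replicates 1 to 3 only. In the other tissues the numbers did not pair. In Tg mice a number names 1 mouse in all tissues.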

Additional observations from a re-analysis of the deposited data

Results flagged for a closer look

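In 4 of 25 pairs of a gene and a tissue checked, 1 of the 5 FMTg libraries lay far from the others. The limit used is passed in about 1 in 20 independent groups by chance. These pairs share libraries and were picked by their genotype p, so the count was not compared with that rate. Values are deposited log2 levels. Slc34a2 was at 9.26 in FMTg kidney 2, where the other 4 FMTg kidneys lay between 8.49 and 8.66. Slc5a1 was at 10.77 in FMTg pancreas 3, with the others between 7.28 and 7.95, in a library that also held kidney markers at 34.4% of the kidney level. Slc22a14 was at 4.26 in FMTg ovary 4, with the others between 2.53 and 2.93, which is 13.3 normalised reads against 1.19 to 2.63. Slc12a1 was at 11.87 in FMTg heart 3, with the others between 4.63 and 5.66, in a library with kidney markers at 11.5% of the kidney level. The part of the kidney RNA in the 2 values was not tested.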

How the results depend on the processing

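The number of members changed in kidney (1) was 0 with voom, with no variance trend, with only the mice that gave an ovary and with 1 model of all tissues, and 2 with library weights. It ranged from 0 to 1 when each library was left out, and was 1 only without FMTg kidney 1. The adjusted p of Slc5a11 (0.0357) ranged from 0.0454 to 0.184 in those fits. In pancreas the count (0) was 1 with 1 model of all tissues (Slc5a5). In small intestine, ovary, heart and the interaction it was 0 in every alternative run, leaving out libraries included (0 to 0). Leaving out each Tg mouse gave 34 to 40 members for Tg kidney against the other tissues, 17 to 24 for Tg small intestine and 24 to 37 for kidney against small intestine. Among members named by the rule, differences that turned direction were Slc12a5 in small intestine with library weights (0.0591) and, in Tg small intestine against the other tissues without Tg replicate 2, Slc12a3 (0.779, and -1.88 without replicate 1) and Slc5a10 (0.709, and -1.86 without replicate 1). The cause was not tested. Outside the rule, Slc22a30 and Slc22a29 in kidney (1.10 and -1.29, not called) were -0.36 and 0.13 with only the mice that gave an ovary.

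With the replicate block 1 member was called in kidney, Slc34a2 in place of Slc5a11, and 0 in the other tissues. That block leaves FMTg 4 and 5 out of the genotype difference. The tissue comparisons paired by mouse gave 39, 21 and 35 members. Of all genes, those called in kidney (95) were 211 with library weights, 59 with 1 model of all tissues, and 47, 46 and 52 without Tg 1, 2 and 3. In pancreas 68 became 38 with medians subtracted, 10 with no trend, 568 with library weights, 0 with the replicate block, 2 with only mice that gave an ovary, 109 without FMTg 4 and 5 (a setting chosen after the data were seen) and 315 with 1 model; leaving out libraries gave 9 to 93. Small intestine (0) gave 55 with weights and 30 with 1 model, ovary (0) 17 and 63, and heart (3) 26 and 27. Heart gave 0 with the replicate block and 1 with only mice that gave an ovary. The interaction (2) gave 0 with the replicate block, without the mouse block and with only mice that gave an ovary, and 1 with medians subtracted or only kidney and small intestine. Leaving out libraries gave 0 to 3 in ovary, 1 to 4 in heart and 0 to 4 for the interaction. In ovary the fit to mice with an ovary library is the reported fit. Depth limits the members at few reads, such as Slc5a5, for which differences in pancreas, in ovary and between Tg tissues rest on fewer than 25 normalised reads per library.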
